A study of Mus musculus with 6 samples.

Results

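The mitochondrial ribosomal proteins were examined in liver of mice lacking ACBP, the acyl-CoA binding protein encoded by Dbi. The genes were those whose platform symbol begins with Mrpl or Mrps followed by a digit and that have a probe set naming that gene alone. Mrpl30 and Mrpl53, whose probe sets each name a second gene as well, were left out. There were 76 genes among 18194 genes with a symbol, 47 with Mrpl and 29 with Mrps symbols. Each was represented by its brightest probe set, by mean log2 signal over the 6 arrays, and all 76 brightest probe sets were called Present on 6 of 6 arrays. The knockout (KO) group was ACBP-/- and the wild-type (WT) group +/+, both of strain C57BL/6JBomTac. All mice were 21 days old and in the fed state when they were removed from their mother, and received no other treatment in the labels. Each of the 3 KO pools and 3 WT pools combined equal amounts of liver RNA from 5 mice, so 15 mice stood behind each genotype. Pools average over mice, so the p-values measure the spread between pools and not between individual animals. The labels state neither how the allele was made nor the sex of the mice.

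The mitochondrial ribosome translates the few messages of the mitochondrial genome, which encode core subunits of the respiratory chain and ATP synthase. All of its proteins are encoded in the nucleus, made in the cytosol and imported. Some descend from bacterial ribosomal proteins, and others were added during mitochondrial evolution. In liver, a tissue rich in mitochondria, they serve oxidative metabolism. By subunit, 49 of the genes encode proteins of the large subunit and 26 proteins of the small subunit. Mrps30 and Mrps18a belong to the large subunit despite their names. Mrps36 is now known as a component of the oxoglutarate dehydrogenase complex and is not a ribosomal protein.

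The share of probe sets called Present was 48.4% to 51.1% in KO pools and 49.1% to 49.7% in WT pools. The actin control's 3'/5' ratio did not overlap between genotypes, at 2.34 to 2.35 in KO pools and 2.18 to 2.19 in WT pools. The Gapdh control's ratio overlapped, at 0.906 to 0.909 in KO pools and 0.874 to 0.916 in WT pools. The part of these ratios in the results was not tested. For Dbi, log2 signals of the brightest probe set were 5.37, 5.32 and 5.15 in KO pools 1 to 3, against 15.94, 15.74 and 15.77 in WT pools. Of the hepatocyte markers 8 of 9 were tested, and their summed linear signal was 119872 to 122575 in KO pools and 119569 to 120619 in WT pools. Markers that rose or fell are those called at an adjusted p below 0.05 in the limma fit given below. That fit called 3.28% of all genes tested as higher and 3.87% as lower in KO. Dividing-cell markers fell in 11 of 12 genes tested, with a summed linear signal of 2204 to 2502 in KO pools and 4581 to 4732 in WT pools. Of 5 neutrophil markers 3 rose (Lcn2, S100a9 and S100a8). Of 8 stellate markers 1 rose (Rgs5) and 3 fell (Col1a2, Reln and Col3a1). Of 8 sinusoidal endothelial markers 7 had a difference below 0 and 1 fell, Clec4g (-0.27). Of 9 Kupffer cell markers 1 fell, Marco (-0.44), and of the hepatocyte markers 1 rose, Tdo2 (0.33). Of 2 cholangiocyte, 3 erythroid and 1 lymphocyte markers tested 0 were called. Their part in the results was not tested. In bulk liver, fewer cells of a type and less RNA per cell cannot be told apart.

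No gene for a mitochondrial ribosomal protein passed the test. In the limma fit over all 22482 probe sets tested, with equal weight for each pool, 0 of 76 were called at an adjusted p below 0.05, where 7.15% of all 10908 genes were called (3.28% higher and 3.87% lower in KO). The smallest adjusted p was 0.109. At an unadjusted p below 0.05 there were 9, 7 higher and 2 lower in KO, which is 11.8% of the genes against 20.2% of all genes tested (10.6% higher and 9.61% lower). A plain two-sample test also called 0 of them, where it called 0.193% of all genes, and put 9 at an unadjusted p below 0.05, where 17.4% of all genes lay. The KO and WT pools did not overlap for 13 genes (17.1%), 10 higher and 3 lower in KO, against 25.4% of all genes tested (12.9% higher and 12.6% lower).

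The count depended on how the pools were weighted and scaled. Quantile normalization and median centring each called 3 genes, Mrpl47 higher and Mrpl50 and Mrps27 lower in KO. Those fits called 9.37% and 9.35% of all genes. Without KO pool 3 the fit called 9 genes, all higher in KO: Mrpl4, Mrpl12, Mrpl18, Mrpl38, Mrpl43, Mrpl45, Mrpl47, Mrps23 and Mrps35. These are 11.8% of the genes, where 15.8% of all genes were called, 10.4% of all genes being called higher. With limma's array weights, added after the data were seen, 23 were called, 20 higher and 3 lower in KO. These are 30.3% of the genes, where 35.9% of all genes were called. That fit gave KO pool 2 a weight of 10.3, KO pool 1 a weight of 0.507 and KO pool 3 a weight of 0.217, with 0.917 to 1 in the WT pools, so it rests largely on 1 KO pool.

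The differences were small. The log2 fold changes, KO minus WT, ran from -0.29 to 0.28 with a median of 0.02 and an SD over genes of 0.10. Of the 76 genes 45 lay above 0 (59.2%) and 31 below, where 53.9% of all genes tested lay above 0. All 10908 genes tested had a median of 0.02 and an SD of 0.31. The standard error of a fold change ran from 0.06 to 0.13. The 95% interval lay within a 1.5-fold difference in either direction for all 76 genes, within 1.25-fold for 59 and within 1.1-fold for 0. Differences inside these intervals could not be resolved with 3 pools per genotype.

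**Figure D1:**
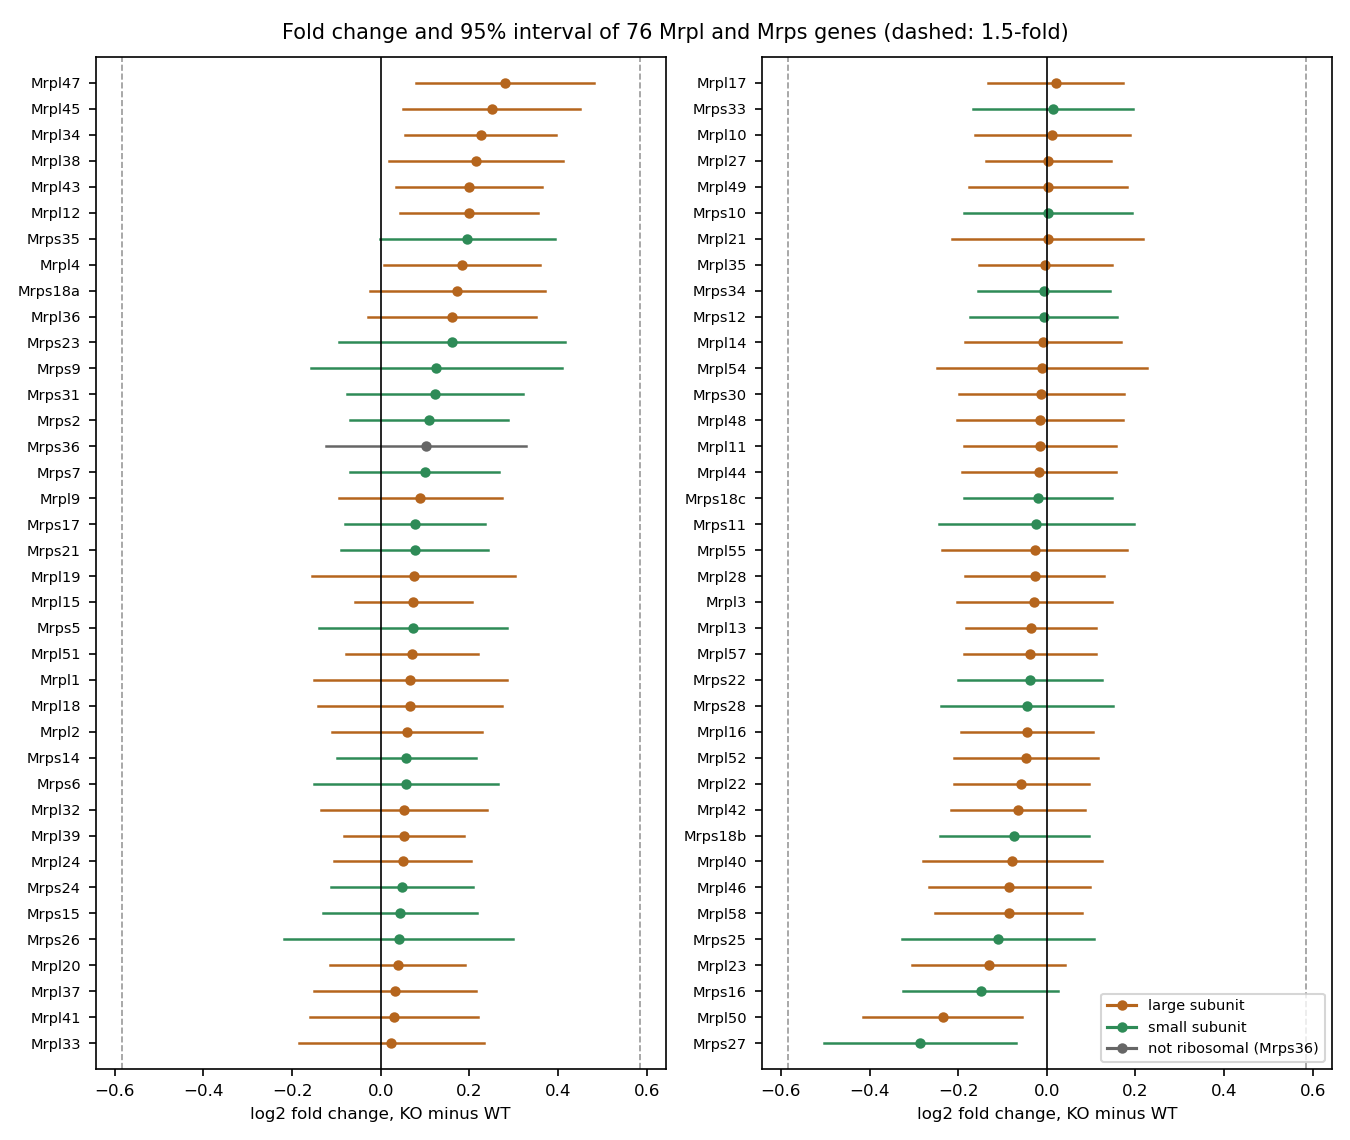
Log2 fold change, KO minus WT, on the horizontal axis with its 95% interval for each of the 76 genes, ordered from highest to lowest and coloured by subunit. Dashed lines mark 1.5-fold, and no interval reaches them.

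Among the large-subunit proteins, Mrpl47, the counterpart of bacterial L29 near the exit of the peptide tunnel, had the smallest p. Its log2 signal was 8.85, 8.84 and 8.65 in KO pools and 8.49, 8.39 and 8.61 in WT pools. The lowest KO pool lay just above the highest WT pool. The difference was 0.28 (SE 0.09, 95% interval 0.08 to 0.48, adjusted p = 0.109). Its dimmer probe set gave 0.41. Mrpl45, which anchors the ribosome to the inner membrane at the tunnel exit, read 8.64, 8.63 and 8.54 in KO pools and 8.21, 8.42 and 8.44 in WT pools. All KO pools were above all WT pools, with a difference of 0.25 and an adjusted p of 0.157. Mrpl4, which lines the tunnel, read 9.29, 9.23 and 9.14 in KO pools and 8.97, 9.07 and 9.07 in WT pools, again without overlap (0.18, adjusted p = 0.261). Mrpl23, at the tunnel exit, had a negative difference, with 9.57, 9.44 and 9.38 in KO pools and 9.58, 9.53 and 9.67 in WT pools. Those pools overlapped (-0.13, adjusted p = 0.447).

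Mrpl12 is the counterpart of bacterial L7/L12 in the stalk that recruits translation factors. It read 10.61, 10.55 and 10.40 in KO pools and 10.25, 10.34 and 10.38 in WT pools. The difference was 0.20 (SE 0.07, adjusted p = 0.145), and KO pool 3 lay close to WT pool 3. The stalk-base proteins gave a fold change of 0.01 for Mrpl10 and -0.02 for Mrpl11. Mrpl34, a homolog of bacterial L34, read 9.54, 9.47 and 9.53 in KO pools and 9.22, 9.26 and 9.39 in WT pools. It was the only one of the 9 genes at an unadjusted p below 0.05 for which KO pool 3 was not the lowest of the KO pools (0.23, SE 0.08, adjusted p = 0.129).

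Mrpl43, a mitochondria-specific protein, read 9.90, 9.83 and 9.74 in KO pools and 9.56, 9.61 and 9.70 in WT pools (0.20, adjusted p = 0.174). Mrpl38, of the central protuberance, read 8.66, 8.65 and 8.49 in KO pools and 8.42, 8.28 and 8.45 in WT pools. Neither gene's pools overlapped. The adjusted p of Mrpl38 was 0.232, and its dimmer probe sets gave -0.05 and -0.07, so its probe sets differ in sign. The dimmer ones were Present on 3 and 5 of 6 arrays. Mrpl46, also of the central protuberance, read 8.74, 8.74 and 8.64 in KO pools and 8.76, 8.76 and 8.87 in WT pools, with every KO pool below every WT pool (-0.09, adjusted p = 0.673). Mrpl50, a mitochondria-specific protein, read 9.12, 9.03 and 8.94 in KO pools and 9.30, 9.18 and 9.32 in WT pools. Its groups did not overlap (-0.24, SE 0.08, adjusted p = 0.134), and its dimmer probe set gave -0.15. Mrpl58, a peptidyl-tRNA hydrolase built into the ribosome, had a difference of -0.09 with overlapping pools.

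In the small subunit Mrps27, a pentatricopeptide repeat protein, had the lowest fold change. It read 7.44, 7.33 and 7.31 in KO pools and 7.74, 7.54 and 7.65 in WT pools. All KO pools lay below all WT pools, by -0.29 on average (SE 0.10, 95% interval -0.50 to -0.07, adjusted p = 0.132). Mrps35, a mitochondria-specific protein, read 9.30, 9.12 and 9.01 in KO pools and 8.85, 8.96 and 9.03 in WT pools, which overlapped (0.20, adjusted p = 0.287). Mrps16, a homolog of bacterial S16, had a difference of -0.15 (adjusted p = 0.375), and Mrps25 one of -0.11 (adjusted p = 0.641), both with overlapping pools.

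**Figure D2:**
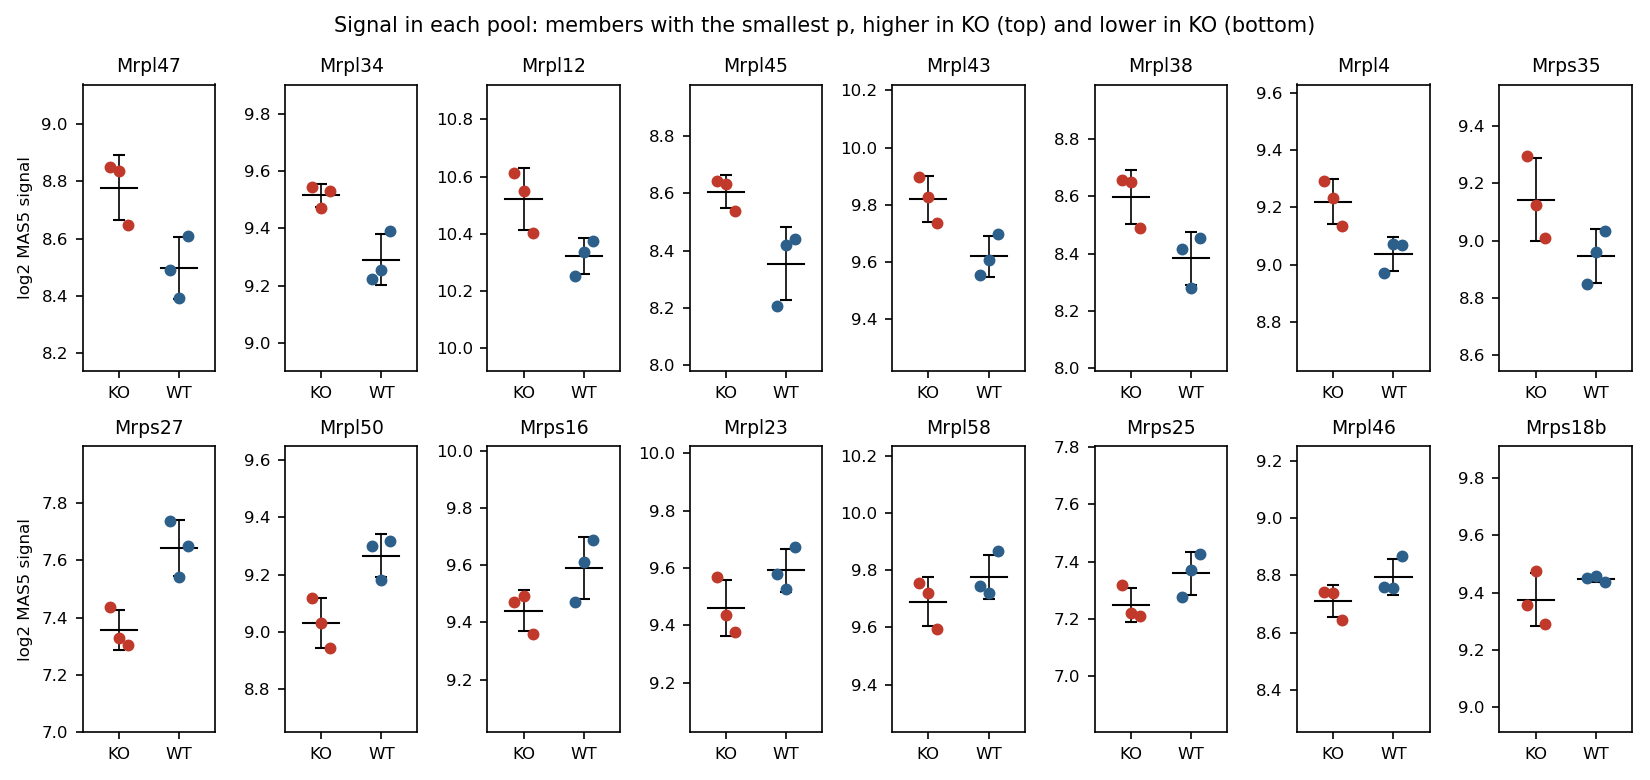
Log2 signal in each pool for the 8 higher (top) and 8 lower (bottom) genes with the smallest p; points are pools, lines the mean, bars the SD of 3 pools. The groups do not overlap for Mrpl47, Mrpl34, Mrpl12, Mrpl45, Mrpl43, Mrpl38 and Mrpl4, nor for Mrps27, Mrpl50 and Mrpl46.

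The S18 relatives differ in their place on the ribosome. Mrps18a, in the large subunit, read 8.61, 8.56 and 8.54 in KO pools and 8.41, 8.27 and 8.52 in WT pools, without overlap (0.17, adjusted p = 0.362). Mrps18b gave -0.07 and Mrps18c, the direct homolog of bacterial S18, gave -0.02, both with overlapping pools. Mrps30 gave -0.01 and Mrps36 gave 0.10. Mrpl36 (0.16) and Mrpl20 (0.04), chosen after their values were seen, complete the genes with KO pools above WT pools.

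By subunit, the large-subunit genes had a median fold change of 0.01, with pools not overlapping for 12 of 49 genes (24.5%). The small-subunit genes had a median of 0.04, with 1 of 26 not overlapping (3.85%). Over all genes tested the share was 25.4%. The 45 homologs of bacterial proteins had a median of 0.04 and the 30 mitochondria-specific proteins one of -0.01. Some genes were grouped by position after the values were seen, and most were given no position. The 7 assigned to the tunnel had a median of 0.05 and the 6 assigned to the central protuberance one of -0.01. None of these differences between classes was tested.

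The KO pools differed among themselves in a pattern shared by most of the genes. KO pool 3 was the lowest KO pool for 71 of 76 genes (93.4%), against 69.9% of all genes tested and 74.6% of those Present on 6 of 6 arrays, as all 76 were. KO pool 1 was the highest for 56 (73.7%), against 57.7% of all genes and 60.8% of those Present on 6 of 6 arrays. The median deviation from the WT mean was 0.09 in KO pool 1, 0.06 in KO pool 2 and -0.09 in KO pool 3, and over all genes tested it was 0.09, 0.04 and -0.08. KO pool 3 had the lowest share of Present calls (48.4%) and KO pool 1 the highest (51.1%). The part of these array differences was not tested. The SD between pools was larger in KO than in WT for 56 of 76 genes (73.7%), against 69.6% of all genes tested. The median SD was 0.09 in KO and 0.06 in WT for these genes, and 0.14 in KO and 0.09 in WT over all genes tested. Mrps9 had the largest SD, 0.31 in KO pools and 0.13 in WT pools, followed by Mrps26 (0.28 and 0.13) and Mrps23 (0.26 and 0.07).

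**Figure D3:**
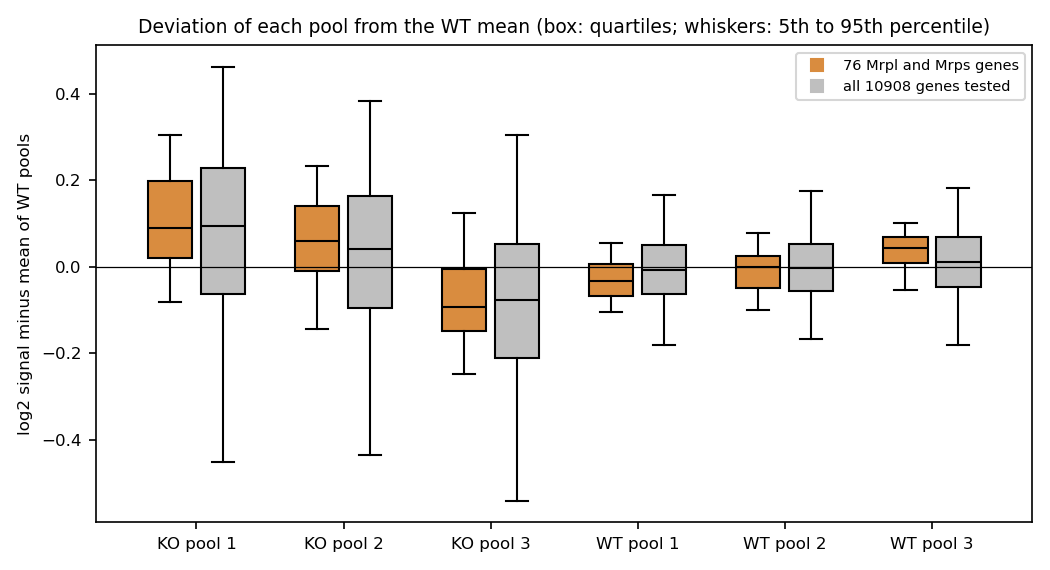
Log2 signal minus the mean of the WT pools in each pool, for the 76 genes and for all 10908 genes tested; boxes are quartiles, whiskers the 5th to 95th percentile. The medians of the 76 genes are 0.09, 0.06 and -0.09 in KO pools 1 to 3.

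Of the 76 genes 33 had more than 1 tested probe set, and for 15 of them the probe sets differed in sign. Some of these rest on dim probe sets: the second one was Present on 3 of 6 arrays for Mrpl21 and on 4 for Mrps31. Over all 136 tested probe sets 0 were called in the limma fit and 16 were at an unadjusted p below 0.05, where 5.68% and 17.7% of all probe sets lay. The smallest adjusted p, 0.0827, belonged to a dimmer probe set of Mrps24, a homolog of bacterial S3. It read 9.14, 8.88 and 8.67 in KO pools and 8.49, 8.62 and 8.55 in WT pools, without overlap (0.34), while the brightest gave 0.05. Mrps24 was chosen after its values were seen, as was Mrpl15, a homolog of bacterial L15. The 6 probe sets of Mrpl15 all gave a positive difference, from 0.07 at the brightest to 0.33. Mrpl51 had probe sets at 0.07, -0.36 and 0.39, the last Present on only 4 of 6 arrays with log2 signals of 4.42 to 5.47. The dimmest of Mrps5 gave -0.42 against 0.07 for its brightest, and was Present on 4 of 6 arrays with log2 signals of 4.24 to 4.90.

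The promoters of the genes were described from RefSeq windows of assembly GRCm38.p6 that hold 250 bases before and 50 after each start. Windows were matched by symbol for 67 of 76 genes. In all, 9 motifs were searched on both strands, and the 3 described here were chosen after the shares of all 9 were seen. CCGGAAG, the letters bound by ETS factors such as GABP, lay in 25 of 67 genes (37.3%), against 20.2% of tested genes and 9.93% of all genes. AAGATGGC, bound by YY1, lay in 12 (17.9%), against 5.22% and 3.19%. The palindromic motif of NRF1, capitalised in the last sequences shown, lay in 3 (4.48%), against 2.41% and 1.07%. The other motifs were GCATGCGC (11.9%, against 6.04% of tested genes), the YY1 motif extended at its end (7.46%, 2.42%), GATGGCGGC (7.46%, 2.8%), GGGGCGGGG of Sp1 (19.4%, 24.7%), CACGTG of the E-box (7.46%, 11.9%) and TCACCCCAC of SREBP (0%, 0.698%). GCATGCGC lies within the NRF1 motif, AAGATGGC within its extended form, and GATGGCGGC overlaps that form. The median GC content was 58.0% in these windows and 60.7% in those of tested genes. A match describes letters and no site of binding. Genes with CCGGAAG had a median fold change of 0.00 (n = 25) and those without it 0.04 (n = 42).

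Shown are the 120 bases before the start, 5′ to 3′ on the gene's strand, with the motif letters in capitals. The first 4 genes carry the ETS motif, capitalised as its reverse complement in Mrps27, and had pools that did not overlap, 3 of them higher in KO and Mrps27 lower. They were picked for that: pools did not overlap for 4 of the 25 genes with the motif (16%) and for 7 of the 42 without it (16.7%), against 25.4% of all genes tested.
Mrpl34 (chr8:71464806-71464925, plus strand): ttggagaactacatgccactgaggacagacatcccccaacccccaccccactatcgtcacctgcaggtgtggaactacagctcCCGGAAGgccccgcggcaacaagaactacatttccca
Mrpl43 (chr19:45006443-45006562, minus strand): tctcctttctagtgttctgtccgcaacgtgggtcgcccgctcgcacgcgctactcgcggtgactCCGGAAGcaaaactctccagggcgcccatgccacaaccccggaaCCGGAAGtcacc
Mrps18a (chr17:46110884-46111003, plus strand): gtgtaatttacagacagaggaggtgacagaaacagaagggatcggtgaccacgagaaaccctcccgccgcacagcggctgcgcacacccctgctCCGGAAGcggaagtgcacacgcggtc
Mrps27 (chr13:99344666-99344785, plus strand): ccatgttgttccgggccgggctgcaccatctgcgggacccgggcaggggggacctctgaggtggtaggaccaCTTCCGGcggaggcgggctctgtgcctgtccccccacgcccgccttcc
The last pair carry the NRF1 letters and had overlapping pools, with differences of 0.09 for Mrpl9 and 0.05 for Mrpl32.
Mrpl9 (chr3:94443216-94443335, plus strand): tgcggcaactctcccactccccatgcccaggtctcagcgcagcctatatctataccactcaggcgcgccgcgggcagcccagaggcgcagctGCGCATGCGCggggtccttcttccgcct
Mrpl32 (chr13:14613038-14613157, minus strand): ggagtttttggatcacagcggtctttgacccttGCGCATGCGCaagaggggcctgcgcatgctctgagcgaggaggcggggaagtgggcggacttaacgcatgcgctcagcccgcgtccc

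The other genes of mitochondrial gene expression gave few calls in the same fit, which called 3.28% of all genes tested as higher and 3.87% as lower. Of 4 mitoribosomal proteins with other names, such as Dap3 and Ptcd3, 0 were called (median 0.01). Of 16 translation factors 0 were called, with a median of 0.12 and 13 above 0 (81.25%, against 53.9% of all genes tested). Of these 16 genes 0 had KO and WT pools that did not overlap, against 25.4% of all genes tested. Their summed linear signal was 7176, 7144 and 6420 in KO pools 1 to 3 and 6552 to 6652 in WT pools. Gfm1, the elongation factor that moves the ribosome along the message, gave 0.13 (adjusted p = 0.377). Of 18 tRNA synthetases 0 were called (median 0.04). Of 24 assembly factors 1 rose: Mterf3, which acts in mitoribosome assembly, read 9.20, 9.22 and 9.15 in KO pools and 8.90, 8.89 and 8.93 in WT pools (0.28, adjusted p = 0.0481). Of 11 genes for transcription and replication of mitochondrial DNA 1 rose. This was Polg2, the accessory subunit of the mitochondrial DNA polymerase, at 8.10, 7.93 and 7.91 in KO pools and 7.45, 7.55 and 7.45 in WT pools (0.50, SE 0.10, adjusted p = 0.00532). Of 11 regulators of mitochondrial biogenesis 1 rose, Esrra, a nuclear receptor of oxidative genes, by 0.48 (adjusted p = 0.0154). Gabpa, a subunit of the ETS factor GABP, gave 0.18 (adjusted p = 0.287). Its other subunits gave -0.24 for Gabpb1 (adjusted p = 0.390) and -0.06 for Gabpb2 (adjusted p = 0.794). Ppargc1b gave 0.30 (adjusted p = 0.0986) and Max -0.31 (adjusted p = 0.227). The regulators had a median of 0.00, with 6 above 0 and 5 below.

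Of 17 genes of import, porins, chaperones and the tricarboxylic acid cycle 2 rose, Mdh2 by 0.21 (adjusted p = 0.0310) and Idh3a by 0.26 (adjusted p = 0.0436), with a median of 0.10. Among 78 respiratory chain and ATP synthase subunits 0 were called, the median was 0.05 and 64 lay above 0 (82.1%). Among 39 cytosolic ribosomal proteins 0 were called, and 19 lay above 0 (48.7%). Over all genes tested 53.9% lay above 0. Both lists were narrowed after their counts were seen. Before that, 1 of 86 respiratory chain genes was called, the assembly factor Ndufaf4 at 0.45 (adjusted p = 0.00681), and 0 of 48 cytosolic ones. KO pool 3 was the lowest KO pool for 61.5% of the respiratory chain subunits and 74.4% of the cytosolic ribosomal proteins. The differences between these lists and the mitochondrial ribosomal proteins were not tested.

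**Figure D4:**
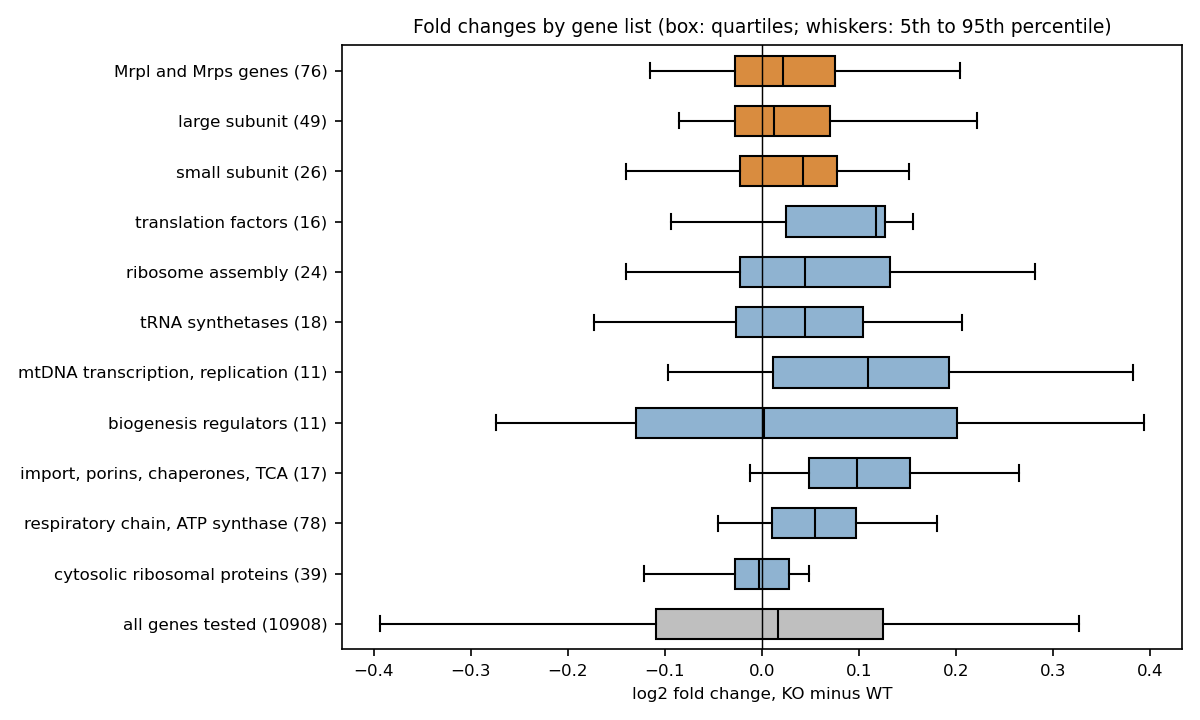
Log2 fold change, KO minus WT, by gene list, with the number of genes tested in brackets; boxes are quartiles, whiskers the 5th to 95th percentile. The median is 0.02 for the 76 genes, 0.12 for translation factors and 0.02 for all genes tested.

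In the authors' deposited table, 9 of the 76 genes had a p below 0.05, 7 given as up and 2 as down. They include Mrpl36 and leave out Mrpl12, unlike the 9 of the limma fit. No gene had a corrected p below 0.05 in the authors' deposited table (0 of 76), where the smallest was 0.349. Only 22 probe sets of that whole table passed this limit, controls left out, so 0 of 76 says little about these genes. The direction in the authors' deposited table was that of the fit here for 76 of 76 genes. Both rest on the same deposited log2 signals, so this is not an independent check.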

How the data were processed

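Liver RNA of 3 KO and 3 WT pools was hybridised to Affymetrix arrays. MAS5 was used per the submitters' processing notes, which state neither version nor scaling. The authors deposited log2 signals and detection calls of 45101 probe sets, together with their own fold change, direction and p-values (raw and corrected) from an unstated test. A second deposited table of log2 values differed by at most 4.91e-07. The log2 values were used as deposited, without a pseudocount, since the design's log2(signal + 1) was meant for linear signals.

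After removal of 64 controls, those Present on at least 3 of 6 arrays were analysed. KO was compared with WT by limma 3.58.1 in R 4.3.3 (lmFit, eBayes, trend = TRUE). Benjamini-Hochberg adjustment ran over 22482 probe sets, and the fit was tested on simulated data. Adjusted p-values are from this limma fit unless another is named. Symbols came from the platform annotation: 34958 probe sets had 1 symbol, 932 several and 9211 none. Promoter sequences came from RefSeq, GRCm38.p6. An exact two-sided permutation test of 3 pools against 3 cannot give a p below 0.1. The number of arrays limits the precision.

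The genes and lists were chosen with earlier results of these data known. Named were Dbi, every called Mrpl or Mrps gene, the 8 genes with the smallest p in each direction, the 3 with the largest spread, those whose probe sets differ in sign, the S18 relatives, Mrps30, Mrps36, and up to 5 genes per list; some that qualify are given as counts. The respiratory chain and cytosolic lists, the grouping by position, the motifs described and the rule for how far an uncalled gene may move between settings were settled after values had been seen. Alternatives changed the pseudocount, detection filter, normalization, variance model, test, block, probe set and pools, and array weights were added after the data were seen. Replicate numbers did not pair the pools: the deviations of same-numbered pools correlated at -0.03, -0.01 and -0.08 over probe sets.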

Additional observations from a re-analysis of the deposited data

How the results depend on the processing

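The count of 0 mitochondrial ribosomal genes called was 3 under quantile normalization, 3 under median centring and 23 with array weights, and leaving out 1 pool at a time gave 0 to 9, with 9 without KO pool 3. The alternative with array weights was dropped after its weights were seen and before its calls were known, and was then restored. The count over all probe sets was 1277. It was 378 without the intensity trend, 30 in the plain two-sample test, 7486 with array weights, and 639 to 3010 when 1 pool was left out, with 639 without WT pool 1 and 3010 without KO pool 3. Of these calls 47.1% were higher in KO, against 68.3% without KO pool 3, 63.6% with array weights, 35.2% without KO pool 1 and 29.1% without the intensity trend. The median fold change of the 76 genes was -0.02 to 0.06 when 1 pool was left out, so its sign depends on the pools. With the pool number as a replicate block, 0 of the 76 genes and 1370 probe sets were called, and the numbers did not pair the pools. The causes of these shifts were not tested, except that fewer pools or unequal weights enter those fits by construction. For the 37 named genes under 17 alternatives, 592 fold changes stayed uncalled and moved by less than that gene's own SD between pools, averaged over KO and WT as variances, 5 moved further, 32 passed the threshold and 0 turned round while called. The detection filters, intensity trend, replicate block and plain test cannot move a fold change, nor can the mean over probe sets for a gene with 1. In those comparisons only the call could change. Leaving out probe sets with suffix _x_at or _s_at can change neither for a gene whose brightest probe set has no such suffix. Mrpl38 gave -0.05 with probe sets whose suffix is neither _x_at nor _s_at. With 3 pools per genotype no interval lay within 1.1-fold, so differences of that size were not resolved.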

Other observations

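In all, 4 probe sets name a mitochondrial ribosomal protein gene together with another gene and were kept out of the counts above. Only that of Mrps34 and Nme3 names one of the 76 genes. That shared by Mrpl30 and Gm6238 read 10.79, 10.60 and 10.52 in KO pools and 10.46, 10.47 and 10.52 in WT pools, and the KO pools lay above the WT pools (0.15, adjusted p = 0.301). The second probe set of Mrpl30 and Gm6238 gave 0.09, that of Mrps34 and Nme3 gave -0.08, and that of Mrpl53 and Ccdc142 gave 0.04, all with overlapping pools. Mrpl30 and Mrpl53 are represented on these arrays by shared probe sets alone among those tested.

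Of the genes, 4 lie on chromosome 1, which also holds Dbi. At the brightest probe set Mrpl15 gave 0.07, Mrps9 0.13, Mrps14 0.06 and Mrpl44 -0.02, none called. Over all tested probe sets Mrpl15 ran from 0.07 to 0.33 and Mrps9 from 0.09 to 0.26. Mrps14 ran from -0.05 to 0.06 and Mrpl44 from -0.04 to 0.04, again with none called.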
